A study of Drosophila melanogaster with 9 samples.

Results

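The genes described here encode the eukaryotic translation initiation factors of Drosophila. They were chosen by symbol as every gene of the count table whose FlyBase symbol begins with eIF followed by a digit, without regard to its counts, and 44 of 13947 genes met this rule. Their expression was measured by nuclear RNA-seq in photoreceptors of males 10 days after eclosion, with heads taken at zeitgeber time 6, that is 6 h after lights on. The flies carried the GAL4 driver rh1-GAL4 with UAS-GFP-Msp300KASH, which tags the outer nuclear membrane with GFP, and an RNAi transgene against Set2, the methyltransferase that places the third methyl group on histone H3 lysine 36. These flies are called shSet2, and their nuclei were pulled out of head homogenates with an antibody against GFP. Rh1-Gal4 is active in outer photoreceptors from late pupal life, and a single RNAi line was used. Counts from 3 shSet2 libraries, each labelled as a replicate, were analysed. Counts from shControl photoreceptors, whose RNAi transgene targets mCherry, were not analysed here, so every value describes shSet2 photoreceptors and none measures an effect of Set2.

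Initiation factors bring the ribosome to the start codon of an mRNA. The eIF4 group recognises the cap and unwinds the 5′ end, the eIF3 complex holds the small ribosomal subunit and links it to the eIF4 group, and eIF2 carries the initiator methionyl-tRNA. The exchange factor eIF2B recharges eIF2 with GTP after each round, and phosphorylation of eIF2alpha by stress kinases blocks that exchange. Several factors have an extra copy in the fly genome, and eIF4E3 and eIF4G2 are known in Drosophila for their roles in developing sperm cells. All 10 such copies (eIF3d2, eIF3f2, eIF3g2, eIF4E3 to eIF4E7, eIF4G2 and eIF4H2) are called extra copies below, and the copy with the lower number is called the main copy.

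The libraries held 3657491, 3794547 and 4960498 counts in replicates 1, 2 and 3. Levels are given as CPM, the counts of a gene per 1000000 counts of its library, with totals scaled by edgeR's TMM method, and a count of 3, the floor of detection used here, equals 0.605 to 0.820 CPM. Because a longer gene can collect more reads, levels of single genes are ordered as CPM per kb of gene span. The span is the distance from the start to the end of the gene with introns included. Whether reads in introns were counted is not given in the sources used here. If only reads in exons were counted, genes with long introns stand too low in this order. Set2 had 313, 370 and 369 counts in replicates 1, 2 and 3. All 10 outer photoreceptor markers had 1500 or more counts in each library, and together they reached 65604 to 68506 CPM. Summed levels over the marker lists of other cells, which are not corrected for span, were 36.5 to 51.2 CPM for the 4 inner photoreceptor opsins, 106 to 149 CPM for 5 glial genes, 15.9 to 55.8 CPM for 5 muscle genes and 33.9 to 39.8 CPM for 4 hemocyte genes. The fat body list reached 588 to 786 CPM, most of it on apolpp, with Lsp2 at 37, 96 and 221 counts in replicates 1, 2 and 3 and Fbp1 at 0 in every library. The list of other neurons reached 807 to 856 CPM, most of it on elav, which photoreceptors also express. Because the RNA was pooled over nuclei, fewer cells of a type and less RNA per cell cannot be told apart.

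Of the 44 initiation factor genes, 34 reached 10 counts or more in all 3 libraries and are called expressed, against 41.6% of all genes in the table. The 10 others were 9 of the 10 extra copies and eIF2Balpha. Of the 34 main or single copies, 33 were thus expressed. Together the 44 genes took 0.148% ± 0.004 (SD, n = 3) of all counts. The eIF4 group held 61.1% ± 1.87 (SD, n = 3) of these, and eIF4G1, eIF4G2, eIF4EHP and eIF5B alone held 52.8% ± 1.68. The median level of the 34 expressed genes was 7.04 ± 0.08 CPM per kb (SD, n = 3), against 5.37 ± 0.11 CPM per kb over the 5751 expressed genes with a known span. In this set, 22 of the 34 genes were above the median CPM per kb of all expressed genes. Without division by span the medians were close, at 19.6 CPM for the 34 genes and 18.6 CPM for all 5802 expressed genes. The initiation factor genes had the shorter median span, 2592 against 3980 bases, which enters the levels per kb.

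**Figure D1:**
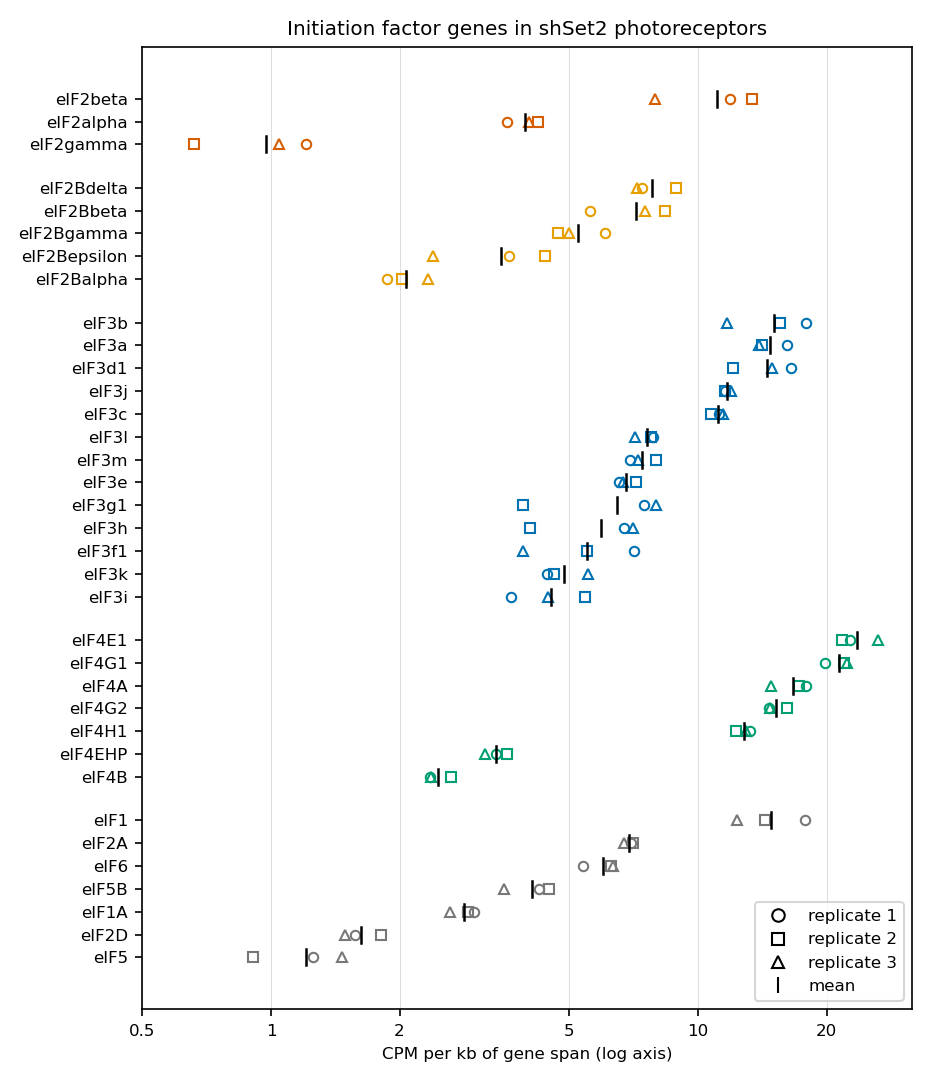
Level of 35 initiation factor genes as CPM per kb of gene span (log axis) in each of 3 shSet2 libraries, with open symbols for libraries and a vertical bar for their mean. Genes are grouped as eIF2, eIF2B, eIF3, eIF4 and the remaining factors, and eIF4E1 and eIF4G1 have the highest means, at 23.6 and 21.4, whereas eIF2gamma has the lowest, at 0.97.

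The cap-binding group contained the most strongly expressed initiation factor genes. eIF4G1 (FBgn0023213), the scaffold that joins the cap-binding protein to the helicase and to eIF3, lies on chromosome 4 from 915297 to 930715 in Release 6. It had 1132, 1279 and 1702 counts, or 307, 338 and 345 CPM in replicates 1, 2 and 3, and per kb of span it stood at percentile 86.4 of the expressed genes. eIF4E1 (FBgn0015218), the main cap-binding protein, had 238, 234 and 370 counts, which gave 64.5, 61.9 and 75.0 CPM. Per kb of span, eIF4E1 averaged 23.6 ± 2.44 and eIF4G1 averaged 21.4 ± 1.32 CPM (SD, n = 3 each). The ranges of these 2 genes overlapped between libraries, with eIF4G1 above eIF4E1 in replicate 2 alone. eIF4A (FBgn0001942), the RNA helicase of the complex, had 274, 270 and 304 counts and 16.7 ± 1.60 CPM per kb. It was below eIF4G1 in every library, by 0.36 ± 0.22 on the log2 scale (SD, n = 3). A two-sided exact sign-flip test over 3 libraries gave p = 0.25, the smallest value that 3 libraries allow, and the same limit holds for every ratio of genes given below.

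The cofactors of the helicase differed. eIF4H1 (FBgn0262734), whose mammalian relative stimulates eIF4A, had 309, 293 and 403 counts and 12.8 ± 0.50 CPM per kb (SD, n = 3). eIF4B (FBgn0020660), the other stimulating factor, had 136, 156 and 182 counts, and its 2.46 ± 0.16 CPM per kb was the lowest level among the 7 expressed eIF4 genes. Its span of 15603 bases, against 6308 bases for eIF4H1, enters this value. In CPM alone eIF4B was at 36.9, 41.3 and 36.9 in replicates 1, 2 and 3, and its level is uncertain because its span lies within that of the long noncoding RNA lncRNA:CR46482.

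eIF4EHP (FBgn0053100) binds the cap without recruiting eIF4G and is known as a repressor of translation. It had 570, 619 and 719 counts, which is 154, 164 and 146 CPM. Of the counts on eIF4EHP and eIF4E1, eIF4EHP took 70.5% in replicate 1 (95% Wilson interval 67.3% to 73.6%), 72.6% in replicate 2 (69.5% to 75.5%) and 66.0% in replicate 3 (63.2% to 68.8%). Per kb of span the order was the opposite in every library, with eIF4EHP at 3.37 ± 0.20 CPM per kb and eIF4E1 at 23.6 ± 2.44. The eIF4EHP gene spans 45884 bases on 3R, and Syx1A, which encodes the synaptic protein syntaxin 1A and had 6671 counts over the 3 libraries, lies within it. How reads in nested genes were counted is not given in the sources used here, so the level of eIF4EHP is uncertain.

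The extra copies fell into 1 expressed gene and 9 genes at or under the floor. The expressed gene was eIF4G2 (FBgn0260634, 3R from 23808285 to 23819237), which had 594, 668 and 797 counts in replicates 1, 2 and 3. It took 34.4% of the eIF4G counts in replicate 1 (95% Wilson interval 32.2% to 36.7%), 34.3% in replicate 2 (32.2% to 36.4%) and 31.9% in replicate 3 (30.1% to 33.7%), a mean of 33.5% ± 1.43 (SD, n = 3). Its level was 161, 177 and 162 CPM. Per kb of span, eIF4G2 averaged 15.2 ± 0.82 CPM and eIF4G1 averaged 21.4 ± 1.32 CPM (SD, n = 3 each), and the ranges over libraries did not overlap. The log2 ratio of eIF4G2 to eIF4G1 per kb was -0.49 ± 0.09 (SD, n = 3). By this measure eIF4G2 stood at percentile 80.0 of all expressed genes and was neighbour in rank to eIF4A and eIF3b, with ranges that overlapped both. The whole span of eIF4G2 lies within the spans of CG33111 and CG34355, which had 249 and 284 counts over the 3 libraries, against 2059 for eIF4G2, so the level and share of eIF4G2 are uncertain as well.

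No count fell on eIF4E3, eIF4E4, eIF4E6, eIF4E7, eIF3f2, eIF3g2 or eIF4H2 in any library, which is 7 of the 44 genes, against 21.6% of all genes in the table. eIF4E5 had 1 count, in replicate 3, and eIF3d2 had 1 count, in replicate 1. Thus 9 extra copies summed to 2 counts over 3 libraries. The 5 eIF4E copies took at most 1 of 371 counts on themselves and eIF4E1 in a library, and a count of 3 would have been 0.809% to 1.28% of the family. For eIF4H2 the limit that a count of 0 allows was 0.744% to 1.02% of the eIF4H counts per library.

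The main copies of these families were all above the floor, at different depths. eIF3d1, which encodes an eIF3 subunit that contacts the cap in human cells, had 139, 104 and 168 counts, so the 1 count on eIF3d2 gave a ratio per kb of 416 with a 95% exact counting interval of 74.3 to 16487. eIF4E1 was at least 133-fold higher per kb than eIF4E3, 140-fold higher than eIF4E4, 72.7-fold higher than eIF4E6 and 374-fold higher than eIF4E7, against a floor of 3 counts over the 3 libraries. Against eIF4E5 the ratio was 335 (59.9 to 13234). eIF4H1 was at least 104-fold higher than eIF4H2. The bounds were weaker where the main copy was itself low. eIF3f1 had 34, 27 and 25 counts and was at least 24.3-fold higher than eIF3f2, and eIF3g1 had 30, 16 and 43 counts and was at least 26.6-fold higher than eIF3g2. The whole span of eIF3g2 lies within that of Gfrl, which had 295 counts over the 3 libraries, so its count of 0 and this bound are uncertain. At these depths a count of 3 would have been 8.82% to 12.0% of the eIF3f counts in a library and 6.98% to 18.8% of the eIF3g counts. The upper 95% Wilson limits for the counts of 0 were 10.2% to 13.3% for eIF3f2 and 8.20% to 19.4% for eIF3g2. Reads that match both copies of a pair may have been set aside or split, which cannot be seen in counts.

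Most of the listed markers of germline or testis were also close to 0 in these libraries of nuclei pulled out of head homogenates. Of the 12 markers, 1 was expressed, against 41.6% of all genes in the table. The 5 genes nanos, bam, aub, aly and Mst87F had no counts in any library, against 21.6% of all genes. The exception was fzo, which encodes a mitochondrial fusion protein of sperm cells, with 64, 97 and 88 counts. The list summed to 18.4 to 27.5 CPM, nearly all of it on fzo. Per kb of span, eIF4G2 averaged 15.2 ± 0.82 CPM and fzo averaged 8.48 ± 1.95 CPM (SD, n = 3 each).

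**Figure D2:**
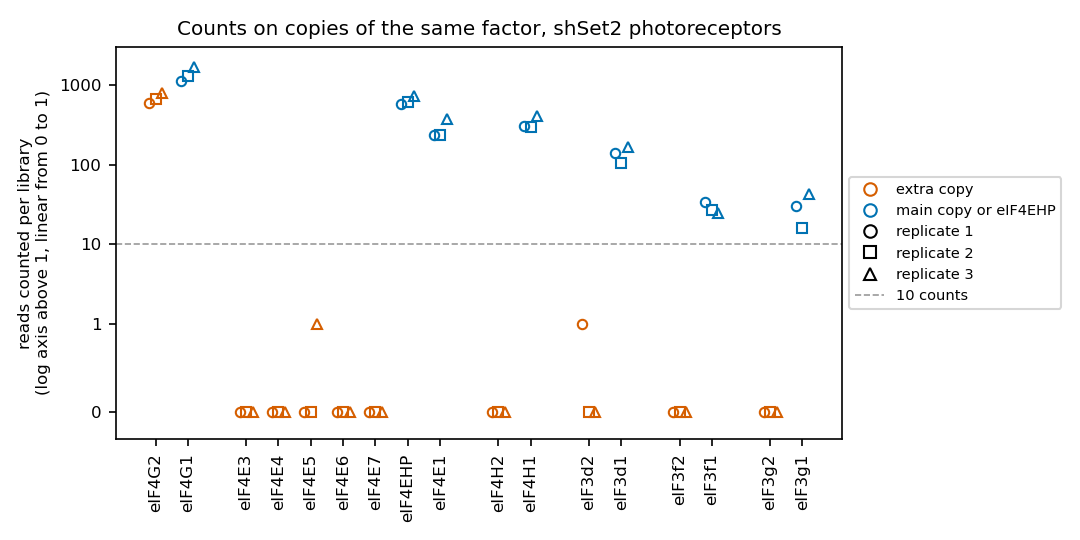
Reads counted per library (log axis above 1, linear from 0 to 1) on copies of the same factor in 3 shSet2 libraries, with extra copies in orange and main copies and eIF4EHP in blue. The dashed line marks 10 counts, and eIF4G2, with 594 to 797 counts, is the only extra copy above 1 count.

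The 13 main subunits of eIF3 were all expressed, between 4.52 and 15.1 CPM per kb, with a median of 7.50 ± 0.27 (SD, n = 3). Their means differed 3.33-fold from the lowest subunit to the highest. eIF3b (FBgn0034237), which binds the small ribosomal subunit together with eIF3g and eIF3i, had the highest mean, with 194, 172 and 169 counts and 17.9, 15.5 and 11.7 CPM per kb in replicates 1, 2 and 3. eIF3i, its partner in the same module, had the lowest mean, with 19, 29 and 31 counts and 3.65, 5.44 and 4.46 CPM per kb. The log2 ratio of eIF3b to eIF3i was 1.73 ± 0.49 (SD, n = 3), and their ranges did not overlap. These are the ends of the order by mean alone, since eIF3a, eIF3d1 and eIF3j were above eIF3b in replicate 3, and eIF3i was the lowest subunit in replicate 1 only.

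Among the other eIF3 subunits, eIF3a, the largest scaffold subunit, was at 14.7 ± 1.23 CPM per kb and its scaffold partner eIF3c was at 11.1 ± 0.36 (SD, n = 3 each). eIF3d1 was at 14.5 ± 2.26 and eIF3j, a loosely bound subunit, was at 11.7 ± 0.22 CPM per kb. A gap separated these from the next subunit, eIF3l, at 7.58 ± 0.42. The lower 8 subunits comprised eIF3l, eIF3m, eIF3e, eIF3g1, eIF3h, eIF3f1, eIF3k and eIF3i. The 8 subunits built on PCI or MPN domains (eIF3a, eIF3c, eIF3e, eIF3f1, eIF3h, eIF3k, eIF3l and eIF3m) had a median of 7.18 ± 0.25 CPM per kb, and the eIF3b, eIF3g1 and eIF3i module had a median of 6.97 ± 1.34, so the medians of the modules differed by less than the spread between libraries.

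The 3 subunits of eIF2 were expressed at unequal levels. Per kb of span, eIF2beta was above the median of all expressed genes and the other 2 were below it. eIF2beta (FBgn0004926), which contacts eIF5 and eIF2B, had 72, 83 and 64 counts and 11.1 ± 2.83 CPM per kb (SD, n = 3). eIF2alpha (FBgn0261609), the subunit that stress kinases phosphorylate, had 24, 29 and 36 counts and 3.94 ± 0.33 CPM per kb. eIF2gamma (FBgn0263740), which binds GTP and the methionyl-tRNA, had 25, 14 and 29 counts and 0.97 ± 0.28 CPM per kb, the lowest level of all 34 expressed genes. The log2 ratio to eIF2alpha was 1.46 ± 0.42 for eIF2beta and -2.06 ± 0.56 for eIF2gamma, and none of the 3 ranges overlapped. The value of eIF2gamma is uncertain, because Su(var)3-9, which encodes a histone H3 lysine 9 methyltransferase, lies entirely within its span with 30, 36 and 37 counts in replicates 1, 2 and 3. The median of the group was 3.94 CPM per kb, and 7.50 with eIF2gamma left out as a gene with a span over 5000 bases.

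The exchange factor eIF2B had 5 genes. eIF2Bdelta, a regulatory subunit, was the highest with 69, 85 and 90 counts and 7.82 ± 0.92 CPM per kb (SD, n = 3). eIF2Bepsilon, the catalytic subunit, was the lowest that counted as expressed, with 36, 45 and 32 counts and 3.46 ± 1.01 CPM per kb. The regulatory subunit eIF2Bbeta was at 7.15 ± 1.41 and eIF2Bgamma, the partner of eIF2Bepsilon, was at 5.24 ± 0.71. eIF2Balpha, a further regulatory subunit, missed the limit by 1 count in replicate 1, with 9, 10 and 15 counts. Its level of 2.07 ± 0.23 CPM per kb was below that of eIF2Bdelta in every library, by 1.92 ± 0.26 on the log2 scale.

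The remaining factors spanned a wide range of levels. eIF1 (FBgn0035423), which guards start codon choice on the small subunit, had 86, 71 and 80 counts and 14.8 ± 2.74 CPM per kb (SD, n = 3). Its partner eIF1A (FBgn0026250) had 92, 91 and 108 counts but a span of 8341 bases, and was at 2.83 ± 0.19. eIF5, which triggers GTP hydrolysis by eIF2, had 23, 17 and 36 counts and 1.21 ± 0.28 CPM per kb, the next to lowest level. The gene CG46312, whose span of 4809 bases lies within that of eIF5, had no counts, and how reads in the shared stretch were assigned is unknown, so the level of eIF5 is uncertain. eIF5B (FBgn0026259), the GTPase that joins the ribosomal subunits, had 506, 547 and 561 counts, which is 137, 145 and 114 CPM, over a span of 32320 bases, and was at 4.08 ± 0.50 CPM per kb. eIF6, which keeps the large subunit from joining too early, had 21, 25 and 33 counts and 5.99 ± 0.53 CPM per kb, and its level is uncertain because its whole span lies within that of ytr. eIF2A was at 6.90 ± 0.18 and eIF2D was at 1.62 ± 0.17 CPM per kb.

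Set side by side, the median levels of the expressed genes were 15.2 ± 0.82 CPM per kb for the 7 eIF4 genes, 7.50 ± 0.27 for the 13 eIF3 genes, 6.14 ± 0.35 for the 4 eIF2B genes and 3.94 ± 0.33 for the 3 eIF2 genes (SD, n = 3 libraries each). The order of these medians, eIF4, eIF3, eIF2B and eIF2, held in each library, and the library ranges of neighbouring medians did not overlap. In every library the eIF4 median was the value of eIF4G2, whose level is uncertain, and the eIF2 median was that of eIF2alpha. The SDs of these 2 medians are thus those of single genes. Single genes of the groups overlapped, from 2.46 to 23.6 CPM per kb in eIF4 and from 0.97 to 11.1 in eIF2. With eIF2gamma and the other genes with spans over 5000 bases left out, the order turned, and the eIF2 median of 7.50 CPM per kb was above that of eIF2B and level with that of eIF3. These medians describe the expressed genes alone. Over all 13 eIF4 genes, of which 6 were extra copies without counts or with 1 count, the median was 2.46 CPM per kb. Within groups, the expressed genes differed 11.4-fold in eIF2, 9.61-fold in eIF4, 3.33-fold in eIF3 and 2.26-fold in eIF2B. Of the 33 neighbouring pairs in the order of the 34 expressed genes, 27 had ranges that overlapped between libraries. This count does not pair the genes within a library. Some of the overlapping pairs, such as eIF1A above eIF4B, kept the same order in every library.

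**Figure D3:**
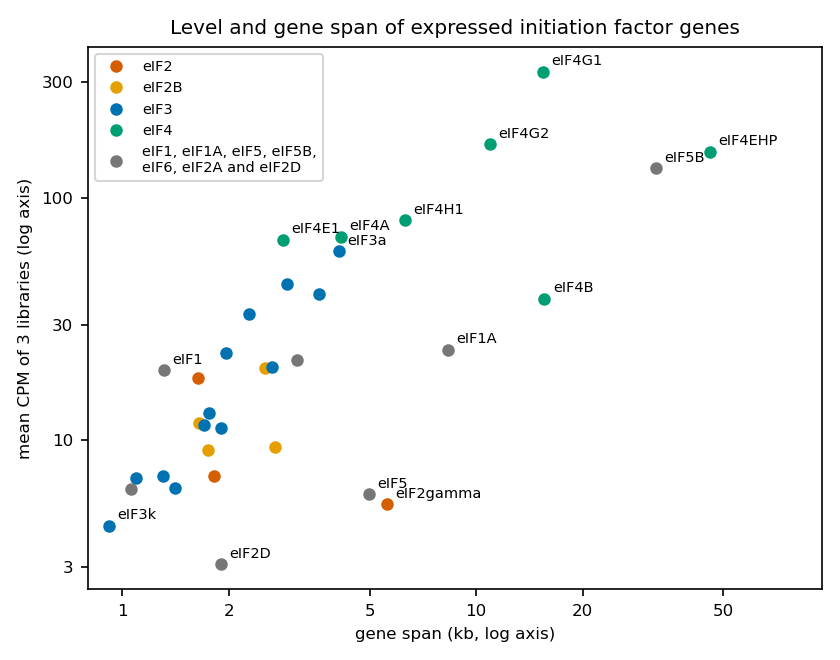
Mean CPM of 3 shSet2 libraries against gene span in kb (both log axes) for the 34 expressed initiation factor genes, coloured by group. Long genes such as eIF4G1 and eIF4EHP lie at the top right, eIF3k with the shortest span is near the bottom left, and eIF2gamma and eIF5 lie below other genes of similar span.

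The level in CPM followed the span of the gene. Across the 34 expressed genes, Pearson's r of log2 CPM and log2 span was 0.74 and Spearman's rho was 0.70, against 0.52 and 0.55 across 5751 expressed genes. Genes are not independent replicates, the points share the same 3 libraries, and these values are a description. The median span was 2592 bases for the initiation factor genes and 3980 bases for all expressed genes with a span. In shSet2 photoreceptors the genes with the 4 highest CPM, which were eIF4G1, eIF4G2, eIF4EHP and eIF5B, all had spans over 10 kb. Lengths of mature transcripts were not used here, so the part of introns in these values was not tested.

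The genes lie on all large chromosome arms, with 13 on 3R, 11 on 3L, 9 on 2R, 7 on X, 3 on 2L and 1 on chromosome 4. The median level was 5.19 CPM per kb for the 6 expressed genes on X and 7.14 for the 28 on autosomes, and over all expressed genes it was 4.90 on X (1041 genes) and 5.47 on autosomes (4710 genes). Of the 34 expressed genes, 19 overlap the span of another gene, by 5 bases for eIF3e and CG9706 to the whole span for eIF4G2, eIF4B and eIF6. The same share over all expressed genes was not computed, so whether this number is high or low is unknown.

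Spread between the 3 libraries was small for most initiation factor genes. The median SD of log2(CPM + 1) was 0.14 over the 34 expressed genes and 0.18 over all 5802 expressed genes. The level in the highest library was at least 1.5 times that in the lowest for 8 of the 34 genes, against 27.0% of all expressed genes. These were eIF2beta, eIF2gamma, eIF2Bepsilon, eIF3b, eIF3f1, eIF3g1, eIF3h and eIF5. No library was the low one for all 8. eIF2beta, eIF2Bepsilon, eIF3b and eIF3f1 were lowest in replicate 3, and eIF2gamma, eIF3g1, eIF3h and eIF5 were lowest in replicate 2. The widest range was that of eIF3g1, with 8.13, 4.23 and 8.71 CPM in replicates 1, 2 and 3 from 30, 16 and 43 counts.

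Depth moved with these ranges. Among genes with a mean of at least 100 counts, 1 of 12 initiation factor genes differed by 1.5-fold or more, against 8.37% of all such genes, and the 1 gene was eIF3b, with 52.6, 45.5 and 34.3 CPM. The tightest genes were eIF3j, with 22.8, 22.8 and 23.5 CPM, and eIF2A, at 21.5 ± 0.56 CPM (SD, n = 3). By group, the median SD of log2(CPM + 1) was 0.09 for eIF4, 0.14 for eIF3, 0.22 for eIF2B and 0.38 for eIF2. The edgeR tagwise coefficient of variation, which removes counting noise, had a median of 0.135 over the 34 genes and 0.139 over all expressed genes. This estimate draws each gene toward a value shared by all genes, and the common value was 0.132. The closeness of the 2 medians therefore follows in part from the method. The highest level was in replicate 1 for 11 of the 34 genes (35.4% of all expressed genes), in replicate 2 for 14 (30.1%) and in replicate 3 for 9 (34.5%).

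**Figure D4:**
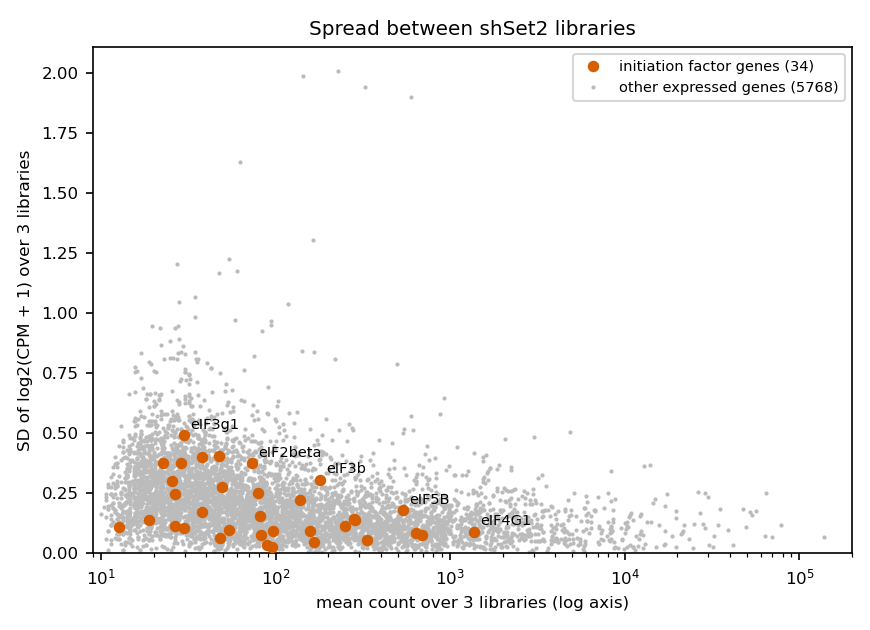
SD of log2(CPM + 1) over 3 shSet2 libraries against the mean count (log axis) for the 34 expressed initiation factor genes in orange and 5768 other expressed genes in grey. The initiation factor genes lie within the cloud of other genes, and eIF3g1 has the largest SD among them, at 0.49.

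Genes that act with the initiation factors were taken from a list, of which 28 of 29 were found by symbol. Of the 28, 26 were expressed by the same limit, against 41.6% of all genes in the table. The exceptions were cup, an eIF4E-binding repressor known from the ovary, with no counts, and vas, the germline helicase related to eIF4A, with 1, 6 and 1 counts. Thor, the 4E-BP that keeps eIF4E from eIF4G, had 150, 159 and 150 counts and 32.0 ± 5.40 CPM per kb (SD, n = 3). mxt, another eIF4E-binding protein, was at 32.0 ± 3.65 CPM per kb, and both averaged above eIF4E1 at 23.6 ± 2.44, although Thor was below eIF4E1 in replicate 3 (25.8 against 26.4). NAT1, an eIF4G relative without the eIF4E-binding site, was at 31.1 ± 4.25 CPM per kb. Lk6, the kinase that phosphorylates eIF4E, had 2718, 2592 and 2682 counts and 48.4 ± 7.39 CPM per kb. The other expressed partners and repressors of cap binding on the list lay on both sides of eIF4E1. By mean, pAbp at 34.6 and tral at 26.8 CPM per kb were above it. Paip2 at 16.6, bel at 13.4, me31B at 6.84 and Pdcd4 at 4.02 CPM per kb were below it.

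The regulators of eIF2 were all expressed. PEK, the eIF2alpha kinase of the endoplasmic reticulum, was at 7.13 ± 0.93 CPM per kb and Gcn2, the kinase that senses amino acid shortage, was at 2.79 ± 0.52, whereas PPP1R15, the phosphatase subunit that reverses the phosphorylation, was at 19.7 ± 2.12 (SD, n = 3 each). eIF2alpha itself was at 3.94 ± 0.33 CPM per kb. The elongation factors eEF1alpha1, eEF1alpha2 and eEF2, which work after initiation, reached 72.3 ± 9.10, 68.8 ± 4.90 and 57.3 ± 4.46 CPM per kb, above eIF4E1, the highest initiation factor gene, in every library. eEF1beta and eEF1delta, which exchange the nucleotide of eEF1alpha, were at 7.03 ± 1.33 and 3.02 ± 0.39 CPM per kb.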

How the data were processed

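Raw counts of reads per gene were deposited by the authors for 3 shSet2 nuclear RNA-seq libraries, each from 10 ng of RNA and made with the Ovation SoLo kit. The submitters' processing notes name Trimmomatic, Bowtie2, STAR, SAMtools, deepTools and DESeq2 and the builds dm6 and BDGP6. The counting tool, its strand setting and its treatment of overlapping genes are not given in the sources used here. Libraries of shSet2 and shControl ATAC-seq (3 each) were not analysed here.

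The table held 13947 genes after 1 row without a name was left out, and 0 columns of other samples. Symbols were found for 13884 identifiers and spans for 13860 in a RefSeq gene table of the assembly Release 6 plus ISO1 MT, whose coordinates are given. The span of the gene took the place of the transcript or coding length that had been planned, and no promoter or protein sequence was used. CPM were computed with edgeR 4.0.16 (R 4.3.3) from TMM-scaled totals, and a gene was called expressed where all 3 libraries had 10 counts or more. SDs are over 3 libraries. Intervals are Wilson or exact 95% intervals. Like the floor of 3 counts, they include only counting error. Only the labels call the libraries replicates, so SDs may partly be technical. Scaling, dispersion and intervals were tested on simulated data. The scaling test held 200 changed genes, and the dispersion test left these genes out.

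All members are accounted for, and values per library are given for copies of the same factor, for the eIF2 subunits, for eIF1, eIF1A, eIF4A, eIF4B, eIF5, eIF5B and eIF6 and for the highest and lowest gene of each group. The symbol rule for the members used no counts, but the rule and the gene lists were chosen with earlier results of these data known. Alternatives were DESeq2 1.42.0 size factors, unscaled totals, other count minimums, a pseudocount of 0.1 in place of 1 and leaving out each library, and 3 more were added after the data were seen.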

Additional observations from a re-analysis of the deposited data

How the results depend on the processing

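The number of expressed initiation factor genes was 34, and 28 to 35 with minimums of 1, 5 or 20 counts. Without replicate 1, eIF2Balpha also passed. Group medians were most sensitive to which genes entered. With no count minimum the median CPM per kb was 5.09 for eIF2B, 6.80 for eIF3 and 2.46 for eIF4. In alternatives chosen after seeing the data, genes that overlap no other gene had a median of 11.1 for eIF3 and 19.0 for eIF4, and genes with spans under 5000 bases had 7.50 for eIF2, above eIF2B and level with eIF3, and 20.1 for eIF4. All eIF2 and eIF2B genes overlap another gene, which gave no value. The median SD of log2(CPM + 1) was 0.139, 0.104 among genes with a mean of at least 100 counts, and 0.119 to 0.127 with a replicate left out. DESeq2 size factors and unscaled totals moved none of 88 levels of single genes by 1 SD. Another gene length was not run. No paired analysis was possible because counts of only 1 group were used. Depth limits the low genes, since 3 counts equal 0.605 to 0.820 CPM.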
